A study of Mus musculus with 40 samples.

Results

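The genes described here are those of the mouse major histocompatibility complex (MHC, called H2 in mice) and of antigen presentation. They were taken by name: every row of the deposited tables whose symbol starts with H2-, and 10 genes that work with the chains these encode (B2m, Tap1, Tap2, Tapbp, Psmb8, Psmb9, Psmb10, Nlrc5, Cd74 and Ciita). This gave 52 genes of 23284 in the pI-pC and antibody table and of 23107 in each tamoxifen table. They comprised 2 classical class I chains, 28 non-classical class I chains, 8 genes of the class I machinery, 5 class II chains, 5 genes of class II peptide exchange, and Cd74 and Ciita. The remaining 2, H2-Ke2 and H2-Ke6, carry the H2- prefix from their position but encode no MHC chain. GENCODE M21 (GRCm38) held a gene model for 49 of the 52, and 44 of those lay on chromosome 17. The genes on which most results turn are H2-K1 (chr17:33996017-34000347, minus strand), H2-D1 (chr17:35262730-35267499, plus strand), H2-Q4 (chr17:35379617-35385290, plus strand), H2-T23 (chr17:36029773-36032855, minus strand), Tapbp (chr17:33915899-33929292, plus strand), H2-Ob (chr17:34238903-34254414, plus strand), H2-Ab1 (chr17:34257689-34269419, plus strand), B2m (chr2:122147686-122153083, plus strand), Nlrc5 (chr8:94434356-94527272, plus strand) and Cd74 (chr18:60803848-60812652, plus strand).

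RNA was sequenced from C57BL/6 mouse thymocytes of 2 stages, the early T-cell precursor (ETP) and the double-negative 3 (DN3) cell, in 40 libraries and 12 groups. In the pI-pC experiment, MxCre mice and MxCre Zmiz1f/f mice (DeltaMxCre) both received 40 mcg of pI-pC every 2 days for 5 doses, and cells were sorted 8 weeks later (3 mice per group). pI-pC is a double-stranded RNA mimic that induces interferon, and interferon in turn switches on the Mx promoter that drives this Cre in many cell types, so both groups had been exposed to an interferon inducer. In the tamoxifen experiment, mice with Rosa26CreERT2 alone (TamCre) or with Zmiz1f/f (DeltaTamCre) both received tamoxifen at 0.2 mg/g, and cells were sorted 43 to 44 h later (4 mice per group). In the antibody experiment, mice received 10 mg/kg of control IgG or of AntiNRR, an antibody that blocks Notch1 through its negative regulatory region, sorted after 24 h, with 3 libraries per group. How many mice these libraries came from is not in the labels, so p-values there measure the spread between libraries, which may be technical. Zmiz1 encodes a transcriptional co-activator that works with Notch1, and the comparisons ask what changes when either is removed or blocked at each stage.

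MHC class I molecules are made in nearly every nucleated cell. A heavy chain (H2-K1 and H2-D1 in this strain) pairs with beta-2 microglobulin (B2m) and carries a peptide that the immunoproteasome (Psmb8, Psmb9, Psmb10) cut, the Tap1 and Tap2 transporter brought into the endoplasmic reticulum and tapasin (Tapbp) helped to load. Class II molecules (H2-A and H2-E) are held by the invariant chain Cd74 until H2-DM exchanges its fragment for a peptide, a step that H2-O restrains. They mark B cells, dendritic cells, macrophages and thymic epithelium. Nlrc5 is the transactivator of class I genes and Ciita that of class II genes, and interferons induce both classes.

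Libraries of the pI-pC and antibody table held 9456817 to 23962394 counts each, those of tamoxifen DN3 cells 48127195 to 91659590 and those of tamoxifen ETP cells 17418637 to 30975325. These tables came from different library kits, so levels were not tested across them. A level is given in CPM, a gene's count scaled to a fixed library size, after TMM scaling, in the order of the replicate numbers. A gene is called here at a Benjamini-Hochberg adjusted p under 0.05 over all genes tested, with edgeR's quasi-likelihood test, and every adjusted p is of this kind unless DESeq2 is named. As a check of the treatments, Zmiz1 had a log2 fold change between -1.41 and -0.66 in the 4 deletion comparisons and was called in both DN3 ones, and Dtx1, a Notch target, fell with AntiNRR in DN3 cells (-3.94, adjusted p = 0.00576). The labels give the phenotype CD44+ CD25- for both stages, whereas Cd44 read 0.536 to 6.94 CPM in DN3 libraries and 47.9 to 312 CPM in ETP libraries, and Il2ra, which encodes CD25, ran from 270.0 to 5023 CPM in ETP libraries. In these bulk samples, fewer cells of a type and less RNA per cell cannot be told apart.

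The promoters of 4 class I genes are shown because H2-K1 and H2-D1 were called in all 4 comparisons of the stages and H2-Q4 and B2m after deletion of Zmiz1 in DN3 cells. Each sequence is RefSeq's, build GRCm38.p6, 250 bases before to 50 after the gene's start, read in the direction of the gene. The positions are H2-K1 (chr17:34000298-34000597, minus strand), H2-D1 (chr17:35262844-35263143, plus strand), H2-Q4 (chr17:35379367-35379666, plus strand) and B2m (chr2:122147437-122147736, plus strand). Capitals mark matches on either strand to the core bound by interferon regulatory factors (AANNGAAA, TTTCACTT when read from the other strand), to the core of the X2 box (TGACG) and to the Y box (CCAAT).
H2-K1: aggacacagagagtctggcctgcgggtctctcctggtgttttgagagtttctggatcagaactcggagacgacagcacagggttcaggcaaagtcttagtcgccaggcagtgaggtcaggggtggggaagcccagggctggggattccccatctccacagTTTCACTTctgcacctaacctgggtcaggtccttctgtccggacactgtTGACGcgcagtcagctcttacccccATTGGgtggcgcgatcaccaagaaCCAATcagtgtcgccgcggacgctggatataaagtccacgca
H2-D1: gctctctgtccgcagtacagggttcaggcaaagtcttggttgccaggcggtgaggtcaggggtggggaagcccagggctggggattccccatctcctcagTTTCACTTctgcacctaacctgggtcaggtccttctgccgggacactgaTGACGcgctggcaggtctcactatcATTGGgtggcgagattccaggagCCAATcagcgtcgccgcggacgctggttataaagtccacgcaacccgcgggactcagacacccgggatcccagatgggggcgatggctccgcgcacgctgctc
H2-Q4: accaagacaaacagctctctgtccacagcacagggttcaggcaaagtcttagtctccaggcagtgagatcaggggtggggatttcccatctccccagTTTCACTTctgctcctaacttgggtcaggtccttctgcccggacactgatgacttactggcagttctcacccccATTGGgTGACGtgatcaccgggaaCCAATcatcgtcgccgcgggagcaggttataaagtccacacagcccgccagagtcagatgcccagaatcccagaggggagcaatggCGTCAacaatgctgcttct
B2m: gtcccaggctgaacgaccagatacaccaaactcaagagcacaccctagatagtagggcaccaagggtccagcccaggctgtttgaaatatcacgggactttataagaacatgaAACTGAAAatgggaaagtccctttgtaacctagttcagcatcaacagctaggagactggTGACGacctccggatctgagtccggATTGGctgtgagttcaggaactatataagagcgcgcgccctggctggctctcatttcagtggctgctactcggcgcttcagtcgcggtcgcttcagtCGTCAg
H2-K1 and H2-D1 held the interferon core, the X2 core and the Y box in the same order, with 49 bases from the start of the first to the start of the second and 25 from there to the Y box. In B2m these distances were 59 and 25 bases. In H2-Q4 the first match to TGACG stood on the other side of the first Y box, 80 bases from the interferon core. Where H2-D1 reads cactgaTGACG before its first Y box, H2-Q4 reads cactgatgact, which differs in the last letter. The later match in H2-Q4 is thus not at the place of the X2 core of H2-D1. RefSeq's table held a promoter for 38 of the 52 genes and not for Nlrc5, H2-Q8, H2-Q9 or H2-T9 among others. The interferon core was present in 24.16% of all 27025 promoters of this length, in 9 of the 9 class I chains with at least 5 CPM and a promoter, in 14 of 22 class I chains in all, in 1 of 6 genes of the class I machinery and in 3 of 8 class II genes. The Y box was present in 37.92% of all promoters and in 31 of the 38. The Rbpj core TGGGAA, the DNA sequence read by the Notch transcription complex, was present in 25.52% of all promoters and in 22 of the 38. A match is a description of letters only, and binding was not measured.

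Class I transcripts were more abundant than class II transcripts in every library. Per kilobase of exon, B2m was the most abundant of the 49 genes with a model in IgG DN3 cells (621 ± 13.8 CPM per kb, SD, n = 3), ahead of H2-D1 (73.8 ± 2.73), Psmb8 (65.5 ± 1.67) and H2-K1 (53.5 ± 3.95). In IgG ETP cells B2m stood at 751 ± 34.9 CPM per kb, H2-D1 at 126 ± 12.4 and H2-K1 at 101 ± 3.996. The same measure was 4.04 ± 1.88 for Cd74 and 3.84 ± 2.03 for H2-Ab1 in these ETP libraries. H2-K1 and H2-D1 did not differ beyond their spread in TamCre ETP cells (187 ± 47.6 and 180.3 ± 48.3 CPM per kb, SD, n = 4). Summed per kilobase, class II genes came to between 2.86% and 12.9% of the class I chains with a gene model over the 40 libraries. H2-Q8, H2-Q9 and H2-T9 have no model and are left out of this class I sum. The lowest share was in a DeltaMxCre DN3 library and the highest in a TamCre ETP library.

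After deletion of Zmiz1 with pI-pC, 5 class I genes were higher in DN3 cells 8 weeks later, and no class II gene was called. Of 52 genes, 35 passed the filter on low counts in this comparison, and 5 rose while 0 fell. All 5 belong to class I: the non-classical chains H2-Q4, H2-Q8 and H2-Q9, the light chain B2m and the transactivator Nlrc5. Over all 12675 genes tested, 0.986% were called higher and 0.458% lower. DESeq2 called 10 of the genes, all higher and all of class I, where it called 3.94% of all genes in either direction.

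H2-Q4, a non-classical chain of the Qa group, read 68.97, 60.7 and 54.1 CPM in MxCre DN3 libraries and 106, 111 and 114 CPM in DeltaMxCre DN3 libraries. The groups did not overlap, and the log2 fold change was 0.85, SE 0.14, adjusted p = 0.0108. Nlrc5 read 56.4, 38.6 and 62.8 CPM in controls and 84.5, 129 and 106 CPM after deletion (1.02, SE 0.20, adjusted p = 0.0195). Every deleted library was above every control library. B2m, the light chain shared by all class I molecules, read 429, 501 and 541 against 607, 783 and 929.6 CPM (0.66, SE 0.15, adjusted p = 0.0458), again with no overlap. H2-Q8 (4.87, 4.905 and 7.19 against 17.96, 24.8 and 18.4 CPM, 1.85, SE 0.30, adjusted p = 0.00752) and H2-Q9 (4.53, 9.39 and 9.44 against 30.2, 16.9 and 17.1 CPM, 1.46, SE 0.34, adjusted p = 0.0458) are near-identical neighbours whose counts may be split between copies, as described further on. All 5 calls were lost without DeltaMxCre DN3 library 2 and all 5 without library 3. Over all genes, the number called went from 183 to 15 and to 12 in these 2 runs. Without MxCre DN3 library 1 or 2 there were 3 calls, and without MxCre DN3 library 3 there were 7. Where leaving out 1 library ended a call, H2-Q4 had adjusted p = 0.0837 to 0.0976, H2-Q8 adjusted p = 0.0612 to 0.0916, Nlrc5 adjusted p = 0.0521 to 0.13, B2m adjusted p = 0.0984 to 0.28 and H2-Q9 adjusted p = 0.0624 to 0.18. The H2-Q9 call was also lost when 1 spread was estimated from all DN3 groups of the pI-pC and antibody table (adjusted p = 0.65). It held under 5 of 12 alternatives.

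The classical chains H2-K1 and H2-D1 were above control and were not called. H2-K1 read 211, 146 and 139 CPM in controls and 254, 217 and 287 CPM after deletion (log2 fold change 0.61, SE 0.16, adjusted p = 0.0775). H2-D1 read 229, 203 and 214 and 303, 272 and 319 CPM (0.47, SE 0.12, adjusted p = 0.0744). In both, the lowest deleted library stood above the highest control library, and DESeq2 called them (adjusted p = 0.0239 and 0.0159). H2-Q6 (1.80, SE 0.44, adjusted p = 0.0554), H2-Q7 (1.10, SE 0.40, adjusted p = 0.23) and H2-T24 (0.95, SE 0.23, adjusted p = 0.0574) were likewise above control, uncalled by edgeR and called by DESeq2. H2-T23, which encodes Qa-1, read 55.9, 43.2 and 34.8 against 53.8, 43.4 and 55.7 CPM and the groups overlapped. H2-M3, which presents formylated peptides, read 11.5, 11.5 and 10.2 against 11.3, 14.01 and 13.03 CPM. Of the 17 class I chains tested, 13 had a log2 fold change above 0 and the median was 0.47. Over all genes tested, 48.4% lay above 0 and the median was -0.01. The chains were read in the same libraries and some may share reads, so no conclusion is drawn from this tally or its median. Summed over the 30 class I chains, levels were 689, 580.5 and 583 CPM in controls and 939, 849 and 1001 CPM after deletion.

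No peptide-supply gene was called. The transporter subunits Tap1 (118, 119 and 125 against 163, 153 and 158 CPM, log2 fold change 0.39, SE 0.12, adjusted p = 0.14) and Tap2 (171, 156 and 145 against 193, 219.6 and 184 CPM, 0.34, SE 0.13, adjusted p = 0.22) did not overlap between the groups. The log2 fold change was 0.17 for Psmb9, -0.23 for Psmb10 and 0.26 for tapasin (Tapbp), none called. Psmb8, an immunoproteasome subunit, read 235, 203 and 231 CPM in controls and 225, 209 and 235 CPM after deletion, with overlapping groups.

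Of the 12 class II genes 8 were tested in these DN3 cells, 0 were called by edgeR or DESeq2, 0 had an unadjusted p under 0.05, 3 lay above 0 and the median was -0.21. Their summed level was 32.9, 29.3 and 27.1 CPM in controls and 29.9, 30.8 and 27.2 CPM after deletion, so the groups overlapped. H2-Ab1, the beta chain of H2-A, read 1.72, 3.75 and 4.18 against 1.95, 1.79 and 2.198 CPM. H2-Oa, which pairs with H2-Ob, read 2.29, 1.21 and 3.701 against 3.74, 4.58 and 3.97 CPM and was not called. H2-DMa, the alpha chain of the exchange factor, read 20.2, 16.2 and 13.9 against 17.8, 16.4 and 15.7 CPM. Cd74 was at or under 1 CPM in all 6 libraries (0.536 to 0.606 and 0.299 to 0.948 CPM), and Ciita read 1.27 to 2.36 and 1.27 to 1.61 CPM. H2-Aa and H2-Eb1 were too low to be tested. Whether the class I and the class II genes differed in their response was not tested.

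Interferon signals and other cell types were read from lists beside these values. Of 16 interferon-induced genes all were tested, 15 lay above 0 and 1 rose, Iigp1, an interferon-inducible GTPase (1.48, SE 0.28, adjusted p = 0.0171). Their summed level was 334, 335 and 265 CPM in MxCre DN3 and 424, 502 and 519.9 CPM in DeltaMxCre DN3 libraries. Of 15 MHC regulators and interferon signalling genes 13 lay above 0 and 1 rose, the receptor chain Ifngr1 (0.66, SE 0.14, adjusted p = 0.0303). The stage markers Cd44 (-3.06), Bcl11a (-2.01) and Rag1 (-0.77) fell in the same comparison. The part of these genes in the class I result was not tested. Of the markers that define B cells, Pax5 was at 0 in all 6 libraries and Ms4a1 at 0 to 0.215 CPM. The dendritic-cell gene Clec9a, the macrophage gene C1qa and the epithelial gene Foxn1 were also at 0 in all 6. These are single members of lists in which other members had counts, as the sums below show, so no conclusion is drawn from them. The 9 dendritic-cell markers summed to 197, 173 and 61.6 CPM in controls and 141, 182 and 159.6 CPM after deletion, most of it Ccr9, which T-cell precursors also express (37.8 to 168 CPM). The other lists had these summed ranges in controls and after deletion: B-cell markers 23.1 to 39.3 and 30.6 to 40.2 CPM, macrophage and monocyte markers 18.2 to 19.04 and 15.1 to 20.02 CPM, and thymic epithelial markers 66.5 to 73.8 and 69.1 to 82.8 CPM. Markers of double-positive and mature T cells summed to 421 to 642 CPM in controls and 693 to 942 CPM after deletion, without overlap. Their part in the class I result was not tested.

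**Figure D1:**
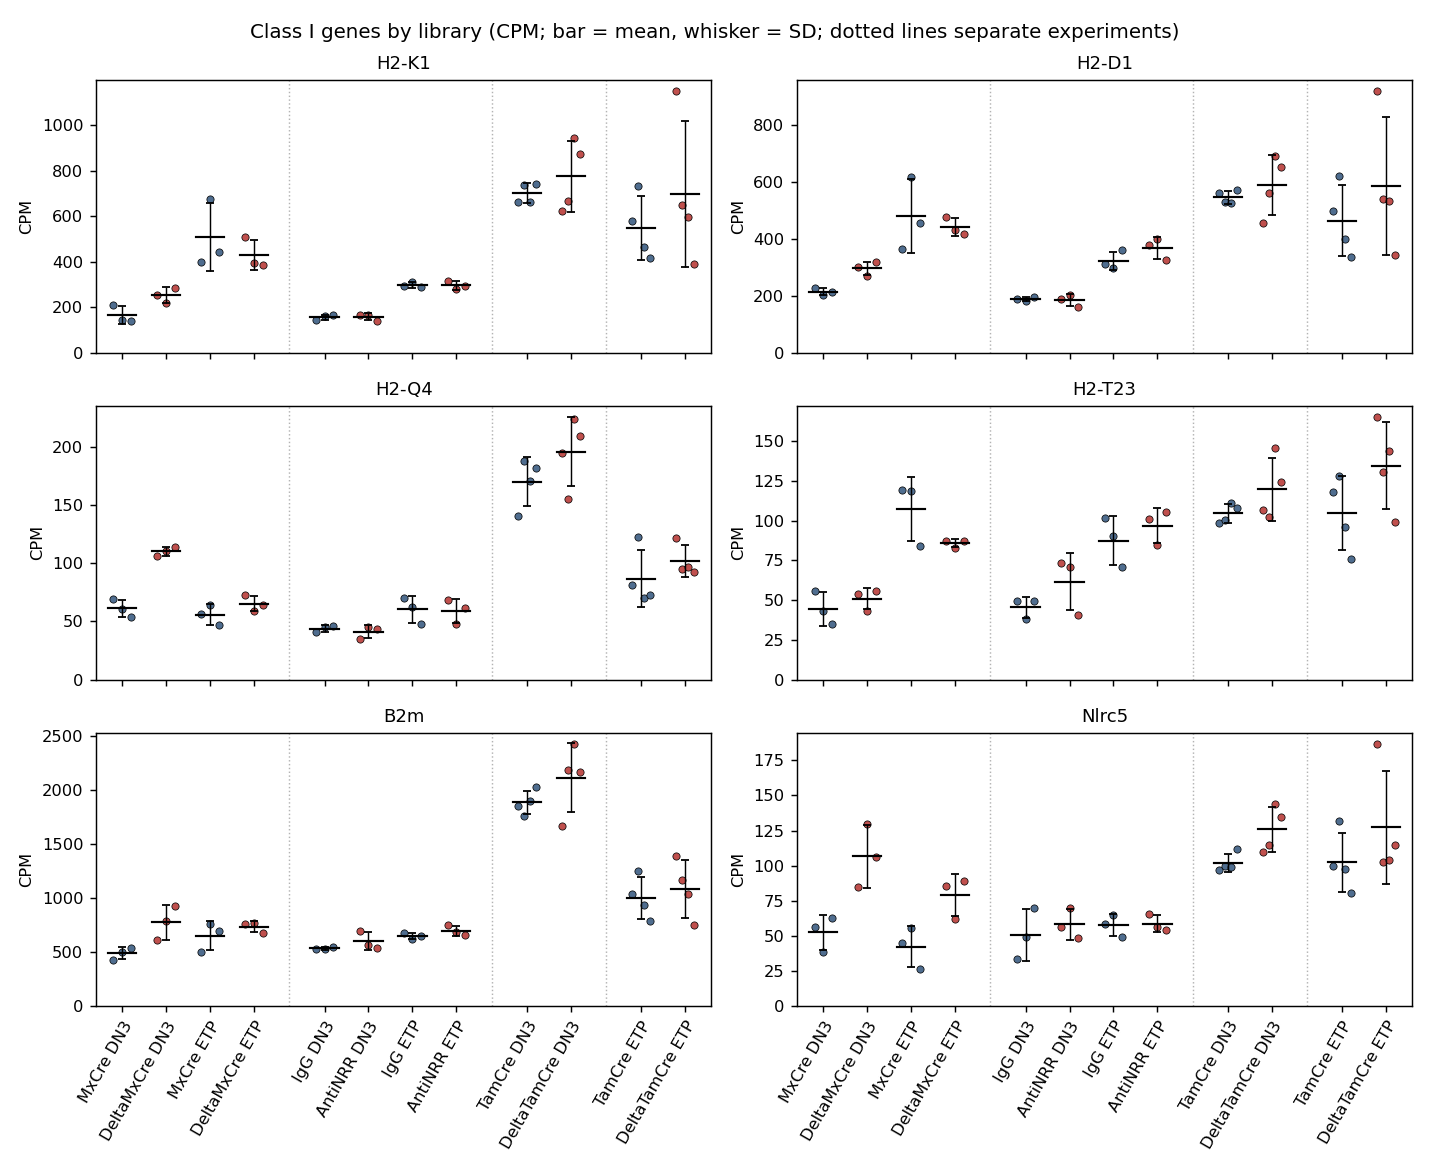
Levels of 6 class I genes in every library, in CPM on linear axes that start at 0 (blue, control groups; red, deleted or AntiNRR groups; bar, mean; whisker, SD). In DN3 cells of the pI-pC experiment, Nlrc5 ran from 38.6 to 62.8 CPM in controls and from 84.5 to 129 CPM after deletion, and H2-K1 was higher in ETP than in DN3 libraries of the pI-pC and antibody table.

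In ETP cells of the same experiment 36 of the 52 genes were tested and 0 were called by edgeR or by DESeq2, beside 0.0416% of all genes by edgeR and 0.865% by DESeq2. At an unadjusted p under 0.05 there were 2, where 5.56% of all genes reached it. They were Nlrc5 (45.2, 55.5 and 26.4 against 85.7, 62.03 and 89.3 CPM, log2 fold change 0.90, SE 0.31, adjusted p = 0.71) and H2-Ob, the beta chain of H2-O (21.4, 18.8 and 5.41 against 4.102, 4.63 and 3.197 CPM, -1.94, SE 0.72, adjusted p = 0.78). Neither overlapped between the groups, Nlrc5 being above control and H2-Ob below it. In the same comparison the Notch target Dtx1 (3.18) and the DN3 markers Ptcra (3.56) and Il2ra (1.27) rose, and their part in the H2-Ob values was not tested. H2-K1 read 401, 677 and 444 CPM in controls and 507, 397 and 386 CPM after deletion, with overlapping groups and a log2 fold change of -0.24 (SE 0.23). MxCre ETP library 2 was the highest control library for H2-K1, H2-D1 and B2m.

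The deletion effect was then tested for a difference between the stages. Of 37 genes tested, 0 were called by edgeR or DESeq2, beside 0.00746% and 0.353% of all genes. At an unadjusted p under 0.05 there were 8, all with a smaller log2 effect in ETP than in DN3 cells, where 5.52% of all genes reached it. They were the class I chains H2-D1, H2-K1, H2-Q4, H2-Q6, H2-Q8, H2-Q9 and H2-T24, and H2-Ob. For H2-K1 the difference in log2 effect was -0.85, SE 0.30, adjusted p = 0.85, and for H2-Q4 it was -0.62, SE 0.26, adjusted p = 0.88. For Nlrc5 it was -0.12 (SE 0.38). A difference between the stages in the effect of the deletion was thus not shown for any of these genes.

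Tamoxifen deletion, read after 43 to 44 h, gave no call among these genes. In DN3 cells 37 of the 52 were tested and 0 were called by edgeR, beside 0.0827% of all genes, while DESeq2 called 1, beside 3.21% of all genes. At an unadjusted p under 0.05 there were 5, beside 15.6% of all genes: Nlrc5, Tap2, H2-Aa and H2-Ob above control and H2-Ke2 below it. Nlrc5 read 97.1, 99.9, 99.2 and 112 CPM in TamCre DN3 and 109.8, 115, 144 and 135 CPM in DeltaTamCre DN3 libraries (0.30, SE 0.09, adjusted p = 0.18), and the groups overlapped in 1 library of each. H2-Aa, the alpha chain of H2-A and the gene DESeq2 called, read 0.806, 0.449, 0.3396 and 0.668 against 1.58, 1.496, 1.05 and 1.01 CPM (1.18, SE 0.36, adjusted p = 0.18; DESeq2 adjusted p = 0.0431), a difference between levels near 1 CPM. H2-K1 read 660.1, 735, 664 and 739.7 and 623, 665, 941 and 872 CPM (0.15, SE 0.13, adjusted p = 0.61), with DeltaTamCre libraries 3 and 4 above all controls and library 1 below all of them. B2m read 1852, 1764, 1899 and 2026 and 1668, 2188, 2425 and 2169 CPM (0.16, SE 0.11, adjusted p = 0.50), and H2-Q4 141, 188, 170.2 and 181 and 194, 155, 224 and 209 CPM (0.20, SE 0.12, adjusted p = 0.44). In each of these the deleted groups spread more widely than the controls.

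In ETP cells 37 of the 52 genes were tested after tamoxifen and 0 were called by edgeR, beside 0% of all genes, and 0 by DESeq2, beside 0.0472%. At an unadjusted p under 0.05 there were 3, H2-M3, H2-T10 and Tap2, all above control, where 4.95% of all genes reached it. H2-K1 read 579.9, 731, 467 and 415 CPM in TamCre and 1147, 649, 598 and 391 CPM in DeltaTamCre libraries. The groups overlapped (log2 fold change 0.34, SE 0.30, adjusted p = 0.91). DeltaTamCre ETP library 1 was the highest of the 8 for H2-K1, H2-D1, B2m, Nlrc5 and Tapbp, and its class I chains summed to 2750.4 CPM. Interferon-induced genes summed to 1550.3, 1824, 1376 and 869 CPM in TamCre ETP and 1837, 1839.6, 1574 and 1223 CPM in DeltaTamCre ETP libraries. Of the class I chains and machinery tested, 20 of 25 lay above 0 in ETP cells and 18 of 25 in DN3 cells, beside 54.4% and 52.2% of all genes. The medians were 0.31 and 0.13, beside 0.03 and 0.01 over all genes. These genes were read in the same libraries and some may share reads, so no conclusion is drawn from this tally or its medians. Over the 4 deletion comparisons Nlrc5 stood above control each time (0.90 and 1.02 after pI-pC, 0.31 and 0.30 after tamoxifen, ETP before DN3), with a call in pI-pC DN3 cells alone. The tamoxifen ETP value rests on DeltaTamCre library 1, at 187, 103, 104 and 115 CPM in the 4 libraries, and was 0.06 without it. Whether these effects differ between pI-pC and tamoxifen was not tested, since the kits differ.

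**Figure D2:**
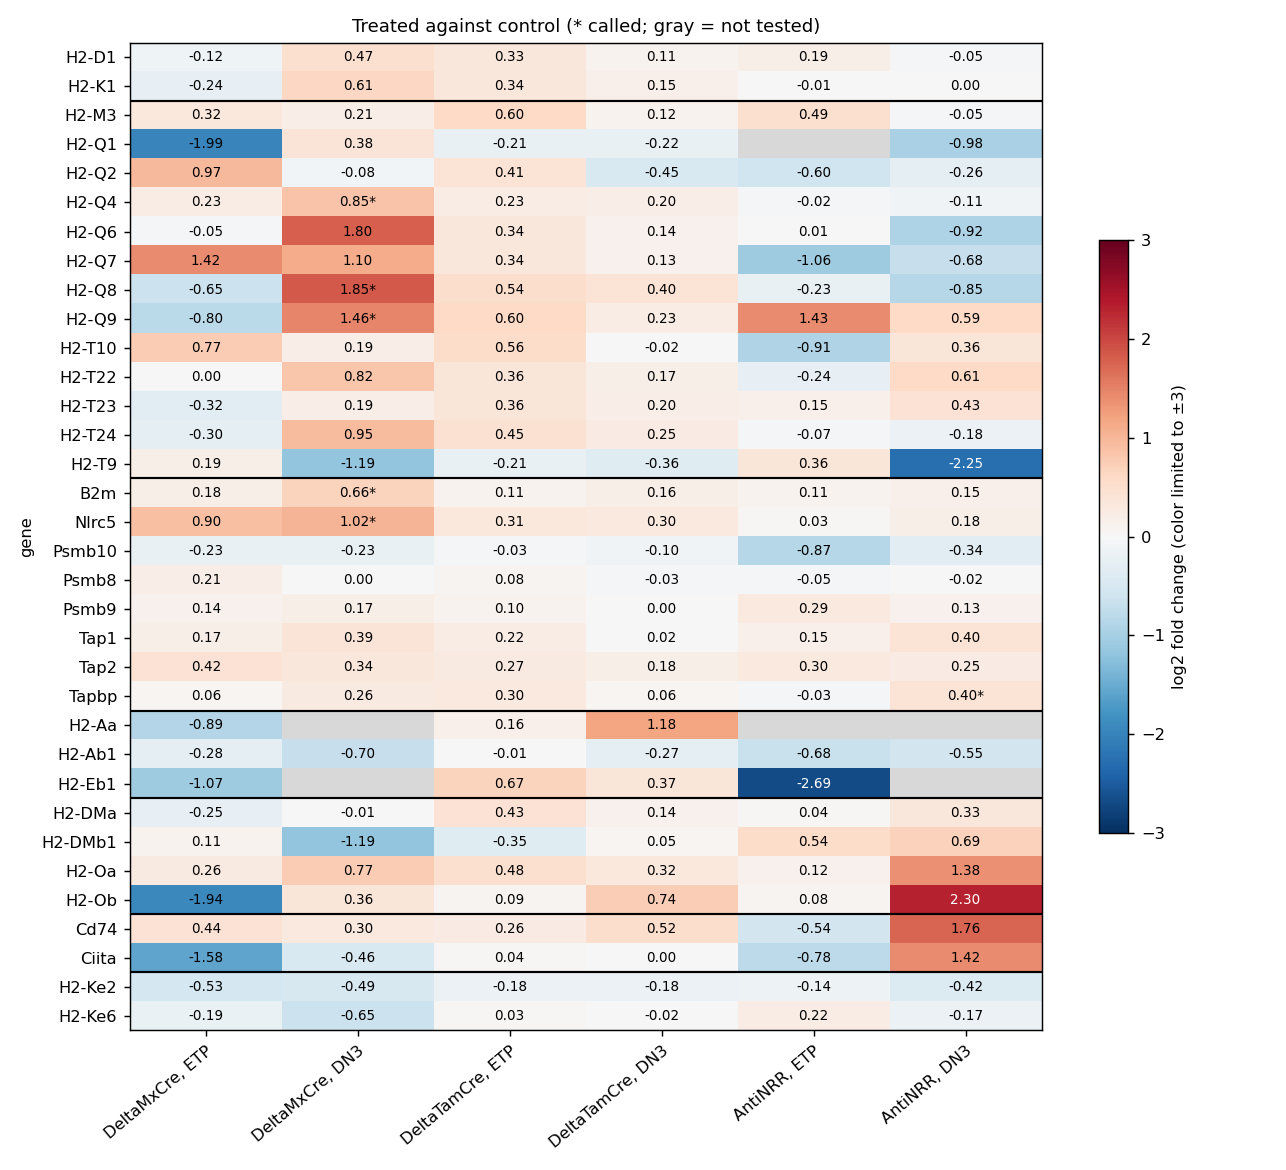
Log2 fold changes of the 34 genes with at least 5 CPM in a group, treated minus control, in the 6 treatment comparisons. An asterisk marks an adjusted p under 0.05 and gray a gene not tested; 5 asterisks fall in the DeltaMxCre DN3 column, 1 in the AntiNRR DN3 column and 0 in the other 4.

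Blocking Notch1 for 24 h was followed by 1 call, in the class I loading step of DN3 cells. Of 34 genes tested there, 1 rose and 0 fell, beside 2.65% of all genes called higher and 2.96% called lower, so the share among these genes was close to the background. The gene was Tapbp, tapasin, which bridges the class I heavy chain to the peptide transporter: 201, 156 and 176 CPM in IgG DN3 and 252, 252 and 208 CPM in AntiNRR DN3 libraries (0.40, SE 0.12, adjusted p = 0.0402). The groups did not overlap. Without AntiNRR DN3 library 1 or 2, or IgG DN3 library 2 or 3, the call was lost (adjusted p = 0.13 to 0.25). It was also lost with 1 spread for all DN3 groups of the pI-pC and antibody table (adjusted p = 0.0696). DESeq2 called 3 of the genes, all higher, beside 6.59% of all genes in either direction: Tapbp, Tap1 (148, 121 and 122 against 155, 196 and 172 CPM, edgeR 0.40, SE 0.12, adjusted p = 0.0507) and H2-Ob (0.501, 2.69 and 0.357 against 7.09, 4.19 and 6.32 CPM, edgeR 2.30, SE 0.80, adjusted p = 0.10). In both genes every AntiNRR library was above every IgG library.

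No class I chain was called in AntiNRR DN3 cells. H2-K1 read 144, 163 and 165 CPM with IgG and 167, 169 and 140.4 CPM with AntiNRR, a log2 fold change of 0.00 (SE 0.11), and H2-D1 read 189, 184 and 198 and 189, 206 and 163 CPM, a log2 fold change of -0.05 (SE 0.11). B2m read 529, 526 and 548 and 691, 569 and 532 CPM (0.15, SE 0.10, adjusted p = 0.51). Tap2 read 177, 170.3 and 166 and 208, 194 and 214 CPM without overlap (0.25, SE 0.10, adjusted p = 0.19). Among class II genes Cd74 read 0.401, 0.427 and 1.49 and 0, 5.42 and 2.57 CPM, and Ciita 0.702, 2.502 and 0.536 and 6.27, 0.821 and 2.94 CPM, with overlapping groups in both. H2-Oa, the partner of H2-Ob, read 3.91, 1.53 and 0.536 and 7.25, 7.47 and 1.03 CPM. Of the 7 class II genes tested, 6 lay above 0 and the median was 1.38, beside -0.01 over all genes. Genes near the count floor with IgG, such as H2-Ob, could pass the filter through their AntiNRR libraries. No conclusion is therefore drawn from this tally.

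Several upstream genes of the pathway were called in the same DN3 libraries. Of 15 MHC regulators and interferon signalling genes 4 rose, the receptor chains Ifngr1 (0.70, SE 0.10, adjusted p = 0.000114), Ifnar2 (0.76, SE 0.13, adjusted p = 0.000488) and Ifnar1, and the kinase Jak1 (0.49, SE 0.09, adjusted p = 0.00151). Of 16 interferon-induced genes 1 rose, Gbp2, a guanylate-binding protein (0.60, SE 0.15, adjusted p = 0.0145), and 12 lay above 0. The lysosomal protease Ctsl, which trims the invariant chain in thymic epithelium, rose (0.96, SE 0.26, adjusted p = 0.0304), and of the 8 peptide-loading genes the chaperone Canx fell (-0.35, SE 0.09, adjusted p = 0.028). DN3 stage markers moved as well: 4 of 6 fell (Ptcra, Il2ra, Cd3g and Rag1), and Kit, an ETP marker, rose. The part of this change of stage markers in the Tapbp result was not tested. Of the 9 dendritic-cell markers 5 were tested, and all 5 lay above 0, with a median of 0.82. Markers near the count floor with IgG could pass the filter through their AntiNRR libraries, so no conclusion is drawn from this tally. Ccr9 was the 1 called gene among them, with 177 to 223 CPM in IgG and 548 to 666 CPM in AntiNRR libraries. The 9 summed to 197 to 244 CPM with IgG and 583 to 709.6 CPM with AntiNRR, most of it Ccr9, which T-cell precursors also express. Clec9a and Batf3 were at 0 in all 6, single genes from which no conclusion is drawn. The part of the other markers in these values was not tested.

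In ETP cells AntiNRR gave 0 calls among 33 genes tested by edgeR, beside 0% of all genes, and 0 by DESeq2, beside 0.301%. At an unadjusted p under 0.05 there were 2, H2-Q7 and Psmb10, both below control, beside 5.47% of all genes. Psmb10, an immunoproteasome subunit, read 59.8, 62.7 and 56.7 CPM with IgG and 33.2, 33.05 and 32.1 CPM with AntiNRR, without overlap (-0.87, SE 0.22, adjusted p = 0.53). H2-Ob read 18.9, 30.5 and 21.7 and 25.1, 24.8 and 25.2 CPM with a log2 fold change of 0.08 (SE 0.31). The test of the antibody effect between stages called 0 of 37 genes by edgeR and 0 by DESeq2, beside 0% and 0.0434% of all genes. At an unadjusted p under 0.05 there were 4, beside 5.46% of all genes, all with a smaller log2 effect in ETP cells. They were H2-Ob (-2.24, SE 0.70, adjusted p = 0.90), Tapbp (-0.45, SE 0.20, adjusted p = 0.90), H2-T10 and H2-K2.

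The classical class I chains H2-K1 and H2-D1 were higher in ETP than in DN3 cells. The stages could be compared in 4 groups of the pI-pC and antibody table, and both genes were called in all 4. The 4 comparisons use separate libraries. With IgG, H2-K1 read 293, 311 and 289 CPM in ETP and 144, 163 and 165 CPM in DN3 libraries (0.92, SE 0.12, adjusted p = 9.10e-05). With AntiNRR it read 315, 279 and 295 and 167, 169 and 140.4 CPM (0.90, SE 0.15, adjusted p = 0.00143). In MxCre mice the values were 401, 677 and 444 and 211, 146 and 139 CPM (1.65, SE 0.26, adjusted p = 0.00992), and in DeltaMxCre mice 507, 397 and 386 and 254, 217 and 287 CPM (0.80, SE 0.14, adjusted p = 0.00495). The stages did not overlap in any of the 4. The call held under 12 of 12 alternatives with IgG, AntiNRR and DeltaMxCre and under 9 of 12 in MxCre, where it was lost without ETP library 2 or without DN3 library 2 or 3 (adjusted p = 0.0513 to 0.0647).

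H2-D1 was called in the same direction. With IgG it read 314, 299.5 and 361 CPM in ETP and 189, 184 and 198 CPM in DN3 libraries (0.77, SE 0.12, adjusted p = 0.000484), and with AntiNRR 381, 399.9 and 327 and 189, 206 and 163 CPM (0.99, SE 0.16, adjusted p = 0.000962). In MxCre mice the log2 difference was 1.19, SE 0.22, adjusted p = 0.0201, and in DeltaMxCre mice 0.60, SE 0.11, adjusted p = 0.0064. The MxCre call was lost without ETP library 2 or any 1 of the DN3 libraries (adjusted p = 0.087 to 0.13). The DeltaMxCre call was lost with 1 spread for all groups of the pI-pC experiment (adjusted p = 0.0629). H2-T23 rose from 49.5, 38.02 and 49.2 CPM in IgG DN3 to 102, 90.2 and 70.8 CPM in IgG ETP libraries (0.94, SE 0.18, adjusted p = 0.00231) and was called in MxCre (1.30) and DeltaMxCre (0.79). The MxCre call was lost without the same 4 libraries (adjusted p = 0.0542 to 0.13) and the DeltaMxCre call without DN3 library 2 (adjusted p = 0.0806). With AntiNRR it was not called (0.64, SE 0.22, adjusted p = 0.0734). Its stage difference was not called as different between IgG and AntiNRR (log2 difference -0.29, SE 0.29, adjusted p = 0.97).

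H2-Q4 was lower in ETP than in DN3 cells of DeltaMxCre mice and was not called in the other groups. There it read 72.3, 59.2 and 64.3 CPM in ETP and 106, 111 and 114 CPM in DN3 libraries (-0.72, SE 0.15, adjusted p = 0.01), the only one of these genes called lower in ETP cells. In MxCre mice it read 56.3, 64.3 and 46.5 and 68.97, 60.7 and 54.1 CPM, with overlapping stages, and with IgG 70.2, 62.3 and 47.95 and 40.4, 45.2 and 45.6 CPM (0.46, SE 0.19, adjusted p = 0.12). The Q4 call rests on the same DeltaMxCre DN3 libraries as its rise after deletion. It was lost without library 2 or 3 of that group (adjusted p = 0.059 to 0.062).

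In numbers, 5 of 36 genes tested rose in MxCre ETP cells and 0 fell, beside 2.10% and 0.895% of all genes. In DeltaMxCre 8 of 34 rose and 1 fell, beside 6.21% and 5.14%. With IgG 7 of 34 rose and 0 fell, beside 7.60% and 7.12%, and with AntiNRR 5 of 33 rose and 0 fell, beside 5.87% and 5.75%. DESeq2 called 12 higher in MxCre, 11 higher and 4 lower in DeltaMxCre, and 11 higher with IgG, beside 8.57%, 15.6% and 15.9% of all genes in either direction. Of the 8 genes of the class I machinery, Psmb8 and Tap1 were called in DeltaMxCre and IgG and Tapbp in DeltaMxCre, all higher in ETP cells. Psmb8, which replaces a catalytic subunit of the standard proteasome, read 248, 339 and 303 CPM in IgG ETP and 219.8, 228 and 217 CPM in IgG DN3 libraries (0.42, SE 0.13, adjusted p = 0.0399). That call was lost without ETP library 2 or any 1 DN3 library (adjusted p = 0.11 to 0.17). It was also lost with 1 spread for all groups of the antibody experiment (adjusted p = 0.054). Tap1 read 176, 173 and 167 and 148, 121 and 122 CPM there (0.40, SE 0.13, adjusted p = 0.0456). The Tap1 call was lost without ETP library 1 or 2 or DN3 library 2 or 3 (adjusted p = 0.0736 to 0.21). It was also lost with 1 spread for all groups of the antibody experiment (adjusted p = 0.0932) and with every gene that had 1 count kept (adjusted p = 0.0505). In DeltaMxCre mice the calls of Psmb8 (0.48), Tap1 (0.48) and Tapbp (0.47) were each lost without any of several libraries, DeltaMxCre ETP library 1 and DN3 library 2 among them for all 3 (adjusted p = 0.0606 to 0.14, adjusted p = 0.051 to 0.0975 and adjusted p = 0.0639 to 0.17). All 3 were also lost with 1 spread for all groups of the pI-pC experiment (adjusted p = 0.12, adjusted p = 0.0796 and adjusted p = 0.12). Psmb9 read 47.02, 38.4 and 44.8 and 28.7, 29.2 and 28.6 CPM (0.59, SE 0.20, adjusted p = 0.0608), without overlap and uncalled. B2m was not called in any of the 4, at 677, 617 and 645 and 529, 526 and 548 CPM (0.27, SE 0.11, adjusted p = 0.11) with IgG. Nlrc5 was not called in any of the 4, with 58.7, 64.7 and 49.1 and 33.3, 48.9 and 69.8 CPM under IgG.

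**Figure D3:**
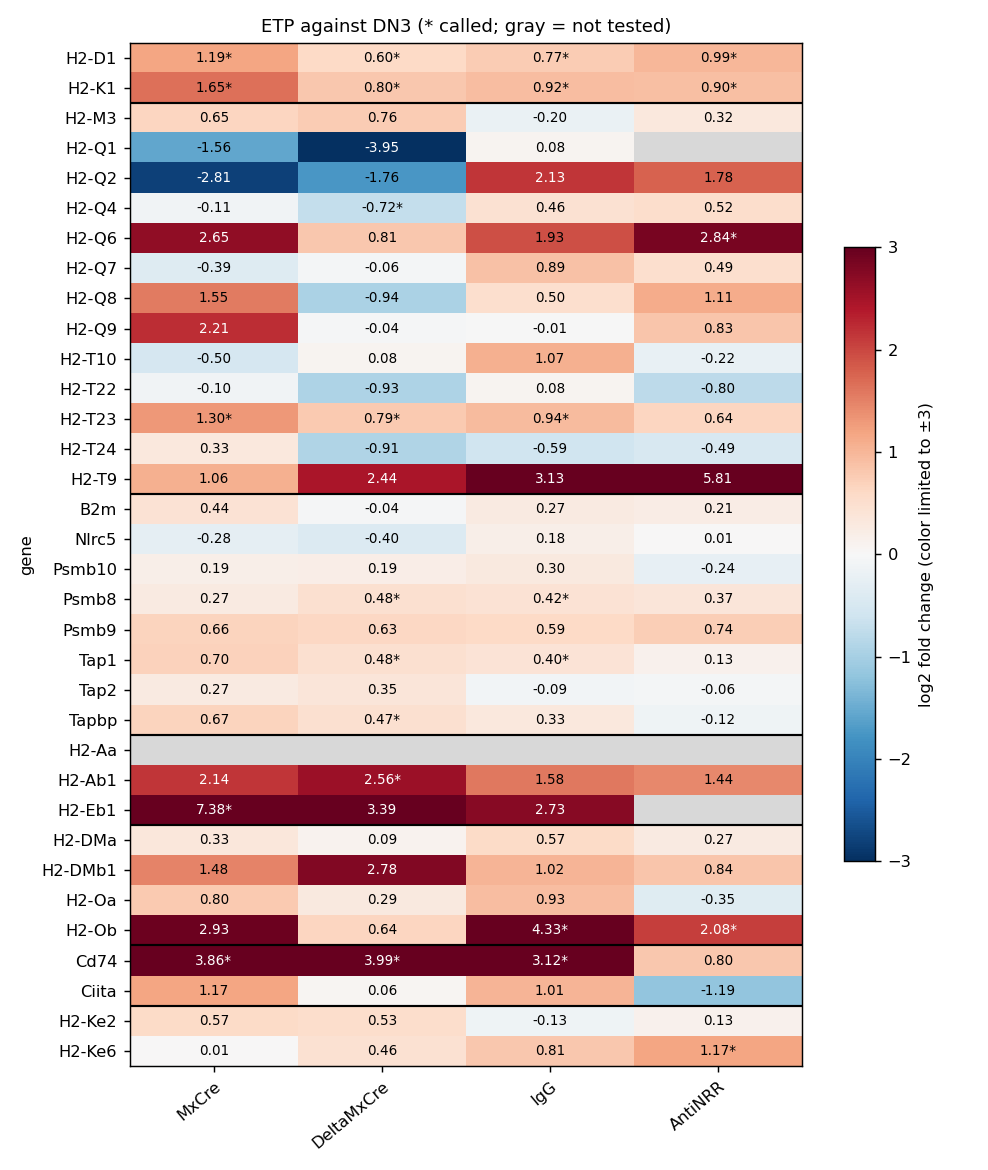
Log2 fold changes of the same 34 genes, ETP minus DN3, in the 4 groups where both stages share a table. Asterisks (adjusted p under 0.05) stand at H2-K1 and H2-D1 in all 4 columns, and H2-Q4 in DeltaMxCre carries the 1 asterisk below 0. Colors stop at ±3, and H2-Eb1 in MxCre is among the values beyond them.

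Class II genes were low in both stages and higher in ETP libraries. Their summed level in ETP and DN3 cells was 62.1, 84.6 and 83.9 against 33.97, 28.2 and 20.7 CPM with IgG, 72.2, 70.5 and 73.5 against 42.4, 47.1 and 39.5 CPM with AntiNRR, 70.4, 99.9 and 84.8 against 32.9, 29.3 and 27.1 CPM in MxCre and 58.7, 64.8 and 63.4 against 29.9, 30.8 and 27.2 CPM in DeltaMxCre mice. The stages did not overlap in these 4. Of the class II genes tested, 9 of 9 lay above 0 in MxCre, 8 of 8 in DeltaMxCre, 8 of 8 with IgG and 5 of 7 with AntiNRR. The medians were 1.48, 1.60, 1.30 and 0.80, beside 0.01 to 0.02 over all genes. A gene passes the filter on low counts when the libraries of 1 stage reach the count. Genes near 0 CPM in DN3 cells, such as H2-Eb1 in MxCre, thus entered through their ETP libraries. Their sign was set in advance, so no conclusion is drawn from this tally or its medians. The calls were 2, 2, 2 and 1, all higher in ETP cells, beside 2.10%, 6.21%, 7.60% and 5.87% of all genes called higher. Whether these few calls exceed those shares was not tested.

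Cd74, the invariant chain, was called in 3 of the 4. It read 3.204, 9.17 and 7.96 CPM in IgG ETP and 0.401, 0.427 and 1.49 CPM in IgG DN3 libraries (3.12, SE 0.85, adjusted p = 0.0201). In MxCre mice it read 6.42, 10.8 and 7.48 and 0.573, 0.606 and 0.536 CPM (3.86, SE 0.88, adjusted p = 0.0477), and in DeltaMxCre mice 4.66, 9.92 and 18.9 and 0.299, 0.948 and 0.858 CPM (3.99, SE 0.79, adjusted p = 0.00831). With AntiNRR it read 6.06, 2.49 and 5.38 and 0, 5.42 and 2.57 CPM, the stages overlapped and it was not called. The MxCre call was lost without ETP library 2 or any 1 DN3 library (adjusted p = 0.15 to 0.22), the DeltaMxCre call without ETP library 3 (adjusted p = 0.0509), and the IgG call without ETP library 2 or 3 or DN3 library 1 or 2 (adjusted p = 0.054 to 0.0807). The MxCre call was also lost when every gene with 1 count was kept (adjusted p = 0.0534) and when a mean of 10 counts was required (adjusted p = 0.0514), and it held under 5 of 12 alternatives. The IgG call was also lost with 1 spread for all groups of the antibody experiment (adjusted p = 0.0865).

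H2-Ob, which dampens H2-DM, was higher in ETP cells with IgG and with AntiNRR. It read 18.9, 30.5 and 21.7 CPM in IgG ETP and 0.501, 2.69 and 0.357 CPM in IgG DN3 libraries (4.33, SE 0.64, adjusted p = 0.000533), and 25.1, 24.8 and 25.2 and 7.09, 4.19 and 6.32 CPM with AntiNRR (2.08, SE 0.37, adjusted p = 0.00228). Both calls held under 12 of 12 alternatives. In MxCre mice it read 21.4, 18.8 and 5.41 and 2.87, 2.604 and 0.644 CPM without overlap (2.93, SE 0.77, adjusted p = 0.0806), and in DeltaMxCre mice 4.102, 4.63 and 3.197 and 2.84, 3.74 and 1.23 CPM (0.64, SE 0.87, adjusted p = 0.73). Its partner H2-Oa read 3.43, 3.09 and 4.91 and 3.91, 1.53 and 0.536 CPM with IgG and was not called in any of the 4. H2-DMa read 21.7, 21.5 and 22.2 CPM in IgG ETP and 20.04, 11.05 and 12.9 CPM in IgG DN3 libraries, and its partner H2-DMb1 read 4.99, 0.618 and 7.29 and 2.91, 3.42 and 0.0596 CPM. Neither was called between the stages.

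The H2-A chains H2-Aa and H2-Ab1 and the H2-E beta chain H2-Eb1 were low in DN3 cells. H2-Ea-ps, the gene of the H2-E alpha chain, is annotated as a polymorphic pseudogene and had 0 counts in all 40 libraries. H2-Ab1 read 5.49, 21.3 and 7.55 CPM in DeltaMxCre ETP and 1.95, 1.79 and 2.198 CPM in DeltaMxCre DN3 libraries (2.56, SE 0.66, adjusted p = 0.0277), a call lost without DeltaMxCre ETP library 2 or any 1 DN3 library (adjusted p = 0.0914 to 0.12). With IgG it read 4.17, 11.02 and 14.4 and 2.86, 3.84 and 3.16 CPM (1.58, SE 0.55, adjusted p = 0.0661). H2-Eb1 was called in MxCre mice, at 1.503, 14.4 and 6.13 CPM in ETP and 0.115, 0 and 0 CPM in DN3 libraries (adjusted p = 0.0454). It rested on 378 counts against 2, a ratio per total count of 169 with a 95% exact Poisson interval from 46.5 to 1400, which covers counting error only, and the call was lost without ETP library 2 or any 1 DN3 library (adjusted p = 0.11 to 0.20). H2-Aa read 0, 10.04 and 2.703 and 0, 0 and 0.215 CPM in MxCre ETP and DN3 libraries and did not pass the filter. Ciita was low throughout, with 7.401, 1.599 and 4.102 CPM in MxCre ETP and 2.29, 1.27 and 2.36 CPM in MxCre DN3 libraries, and was not called. In the tamoxifen experiment Cd74 read 64.6, 37.5, 22.6 and 31.4 CPM in TamCre ETP and 3.39, 1.29, 1.33 and 1.44 CPM in TamCre DN3 libraries, values from different kits that are given side by side and were not tested.

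**Figure D4:**
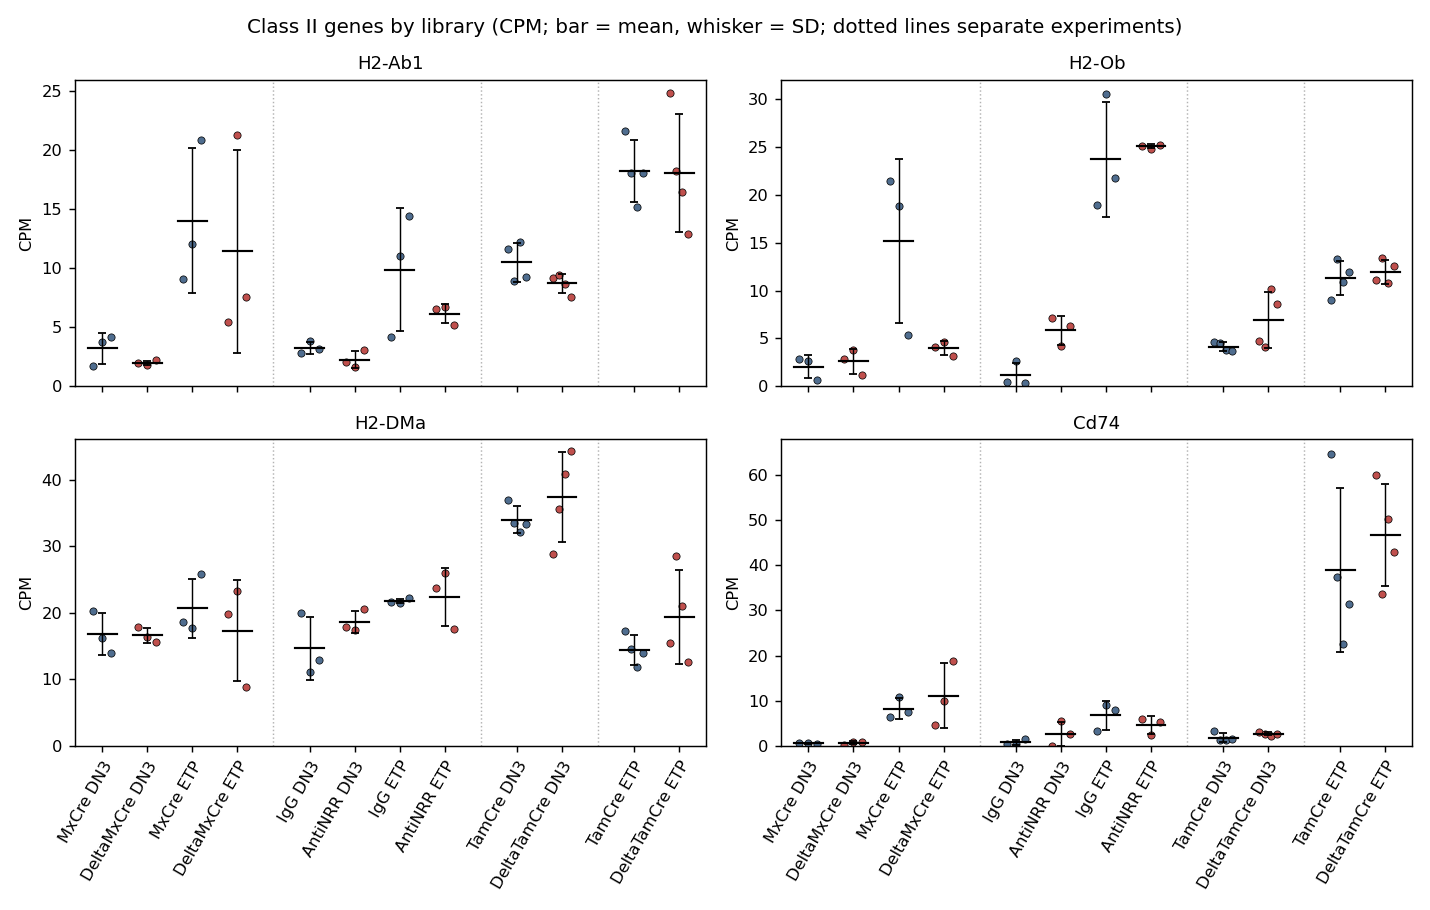
Levels of 4 class II genes in every library, in CPM on linear axes that start at 0 (blue, control groups; red, deleted or AntiNRR groups; bar, mean; whisker, SD). H2-Ob in DeltaMxCre ETP libraries (3.197 to 4.63 CPM) lies below the other ETP groups of that table, and Cd74 in DN3 libraries of MxCre mice stays at 0.536 to 0.606 CPM.

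Some markers of antigen-presenting cells were also called between the stages, in both directions. The lysosomal protease Ctss, which frees class II molecules of the invariant chain in such cells, was higher in ETP cells in all 4 (4.57, 3.11, 4.36 and 3.80 in MxCre, DeltaMxCre, IgG and AntiNRR, each called). Of the dendritic-cell markers, Itgax was called higher in ETP cells in DeltaMxCre, IgG and AntiNRR, Cst3 with IgG, and Flt3, which multipotent progenitors also express, in MxCre, while Ccr9 was called lower in DeltaMxCre. Of 4 macrophage and monocyte markers tested in each group, 1 was called higher with IgG and 0 in the other 3 groups. It was Csf1r, the receptor of a macrophage growth factor, at 5.81, 5.36 and 17.1 CPM in ETP and 0.551, 0.915 and 1.67 CPM in DN3 libraries. In ETP and DN3 libraries, the 9 dendritic-cell markers summed to 139.6 to 265 and 197 to 244 CPM with IgG, 334 to 518 and 583 to 709.6 with AntiNRR, 82.3 to 192 and 61.6 to 197 in MxCre and 52.1 to 93.9 and 141 to 182 in DeltaMxCre mice. Of the macrophage and monocyte markers, the 8 matched by symbol summed to 33.5 to 54.9 and 14.6 to 28.3 CPM with IgG, 22.1 to 36.97 and 17.2 to 23.4 with AntiNRR, 30.2 to 33.8 and 18.2 to 19.04 in MxCre and 22.6 to 26.4 and 15.1 to 20.02 in DeltaMxCre mice. Of 3 B-cell markers tested in each group 0 were called. Of 4 thymic epithelial markers 1 was called, Epcam, an adhesion molecule of epithelial cells, which was lower in ETP cells in all 4 groups (-2.20, -1.24, -1.86 and -1.79 in MxCre, DeltaMxCre, IgG and AntiNRR). With IgG, B-cell markers summed to 26.99 to 36.7 and 31.9 to 46.3 CPM and thymic epithelial markers to 27.2 to 31.5 and 79.4 to 92.4 CPM in ETP and DN3 libraries. Pax5, Clec9a, C1qa and Foxn1 were at 0 in all 6 IgG libraries, and Ms4a1 at 0 to 1.71 CPM. Other members of their lists had counts, as the sums show, so no conclusion is drawn from such single genes. Over the MxCre, DeltaMxCre and AntiNRR libraries of both stages, Pax5 and Foxn1 were at 0, Clec9a ran from 0 to 1.39 CPM and C1qa from 0 to 1.07 CPM. In TamCre and DeltaTamCre ETP libraries Pax5 ran from 0 to 0.753 CPM and C1qa from 0 to 2.75 CPM. The part of such cells in the class II levels was not tested.

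Other genes of the pathway were also called between the stages. Of the 8 peptide-loading genes Calr, the calreticulin chaperone, was higher in ETP cells in DeltaMxCre (0.60), IgG (0.65) and AntiNRR (0.68), and Pdia3, its partner in the loading complex, with IgG and AntiNRR. In DeltaMxCre Tapbpl, a relative of tapasin, was lower (-1.07) and the proteasome activator subunit Psme2 higher (0.61). Of the 7 genes of the class II transcription complex, Rfx5 was lower in ETP cells in DeltaMxCre (-1.12, SE 0.20, adjusted p = 0.00483) and AntiNRR (-1.20, SE 0.20, adjusted p = 0.00142) and Rfxank with IgG (-0.81, SE 0.24, adjusted p = 0.0335), while Nfya was higher in DeltaMxCre (0.53, SE 0.12, adjusted p = 0.0158). Nfkb1 was higher in MxCre, DeltaMxCre and IgG ETP cells (0.89, 0.92 and 0.75). Among MHC regulators and interferon signalling genes, Ifngr1 was higher (0.55) in IgG ETP cells, and Irf8 was higher (2.26) and Ifnar1 and Stat2 lower (-0.57 and -0.64) in AntiNRR ETP cells. Of 16 interferon-induced genes 2 were higher in DeltaMxCre ETP cells (Oasl2 and Rtp4) and 2 lower in AntiNRR ETP cells (Zbp1 and Gbp2), and no other was called in the 4 groups. Gbp2 was lower in AntiNRR ETP than AntiNRR DN3 cells (-0.83, SE 0.20, adjusted p = 0.0135).

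Counts of near-identical class I genes varied widely among libraries of 1 group. H2-T9, H2-T10 and H2-T22 encode closely related non-classical chains, and those of H2-T10 and H2-T22 can bind gamma-delta T-cell receptors. H2-T22 ran from 0% to 88.5% of their summed level over the 40 libraries and was at 0 in 6, and H2-T9 ran from 0% to 85.7% and was at 0 in 5. In MxCre ETP libraries H2-T22 read 0, 4.22 and 33.9 CPM and H2-T9 37.2, 42.9 and 1.303 CPM, so the library high in one was low in the other. In IgG ETP libraries the values were 49.3, 0 and 5.87 CPM for H2-T22 and 0.0745, 28.3 and 24.98 CPM for H2-T9. The sum of all 3 was 47.8 ± 8.76 CPM (SD, n = 3) in MxCre ETP and 54.04 ± 12.2 CPM in IgG ETP libraries. In GENCODE M21 transcripts, 31.7% of the 50-base words of H2-T10 also occur in H2-T22, while H2-T9 has no gene model there. The counting rule for reads that match several genes is not given in the sources used here, so single values of these genes are uncertain.

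H2-Q6, H2-Q7, H2-Q8 and H2-Q9 behaved likewise, with H2-Q7 at 0% to 72.2% and H2-Q9 at 0% to 77.7% of their sum. Of the 50-base words of H2-Q6, 24.5% occur in other class I genes, against 10.9% for H2-D1, 9.63% for H2-K1 and 4.66% for H2-T23. Summed, the 4 read 48.8, 49.2 and 28.9 CPM in MxCre DN3 and 105, 107 and 117 CPM in DeltaMxCre DN3 libraries, without overlap. With IgG and AntiNRR in DN3 cells the sums were 12.6, 37.4 and 32.6 and 16.6, 31.04 and 12.8 CPM, with overlap. H2-Q6 was called higher in AntiNRR ETP than AntiNRR DN3 cells (7.42, 8.67 and 7.14 against 1.71, 0.821 and 0.661 CPM, 2.84, SE 0.81, adjusted p = 0.0338), a call lost when any 1 of the 6 libraries was left out (adjusted p = 0.0506 to 0.12). H2-Q1 and H2-Q2, which are also related to each other, were low and uneven, with H2-Q2 at 7.51, 1.76 and 44.7 CPM and H2-Q1 at 1.78, 0 and 8.37 CPM in MxCre DN3 libraries. H2-T24, with 1.24% of its words shared, read 15.99, 15.9 and 11.6 CPM in MxCre DN3 and 26.9, 27.1 and 29.9 CPM in DeltaMxCre DN3 libraries.

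**Figure D5:**
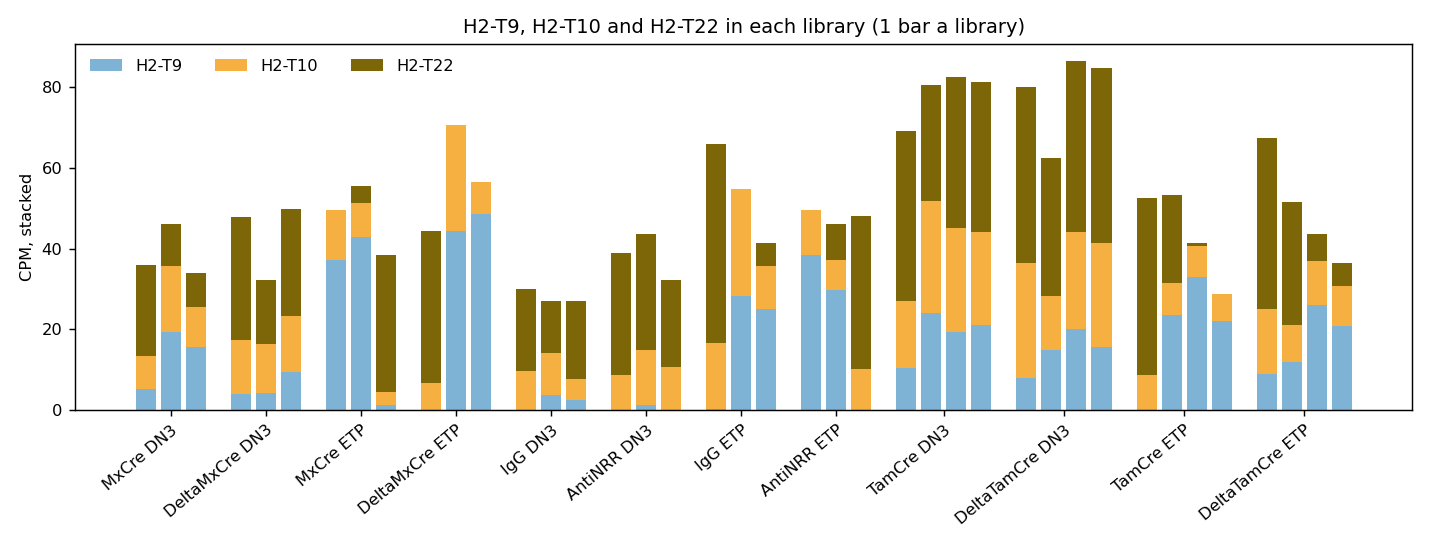
Levels of H2-T9, H2-T10 and H2-T22 stacked in CPM, 1 bar per library, in the order of the replicate numbers. The share of H2-T22 swings between 0% and 88.5% of a bar among libraries of the same group, as in MxCre ETP.

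Overlapping genes limit other values, since it is not stated whether the counting used strand. Psmb9 and Tap1 share 212 exon bases on opposite strands, Tapbp shares 149 bases with Zbtb22 on its own strand and 904 with an antisense gene, and H2-DMa shares 360 with Brd2. H2-Q4 shares 496 bases, Psmb8 498 and Tap2 533 with an antisense or non-coding gene, and Ciita 329 with Dexi. H2-Ke6, an estradiol dehydrogenase gene, shares 1419 bases with a transcript on its own strand. It was called higher in AntiNRR ETP than AntiNRR DN3 cells (23.4, 23.8 and 28.4 against 11.8, 9.85 and 11.7 CPM, 1.17, SE 0.33, adjusted p = 0.0303) and without overlap, a call lost without any 1 DN3 library or ETP library 2 or 3 (adjusted p = 0.0509 to 0.12). H2-Ke2, the prefoldin subunit gene Pfdn6, read 11.2, 10.7 and 7.66 CPM in IgG ETP and 12.5, 13.2 and 6.43 CPM in IgG DN3 libraries and was not called in any comparison.

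The other 18 of the 52 genes stayed under 5 CPM in every group. Of these H2-M1, H2-M10.1, H2-M10.4, H2-M10.5, H2-M11, H2-M9 and H2-Ea-ps had 0 counts in all 40 libraries. The highest group means among the rest were 3.70 CPM for H2-K2, annotated as a transcribed pseudogene, 1.42 CPM for H2-DMb2 and 1.01 CPM for H2-T3, which encodes the thymus leukaemia antigen. H2-Bl, H2-M10.2, H2-M10.3, H2-M10.6, H2-M2, H2-M5, H2-Q10 and H2-Eb2 were under 1 CPM in every group. None of the 18 was called in any comparison.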

How the data were processed

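Poly-A or ribosome-depleted RNA of sorted ETP and DN3 thymocytes was sequenced in 40 libraries, with a different kit for each of the 3 deposited tables. The deposited values are estimated counts per gene: 0.712% to 1.19% of them were not whole, and they were rounded to whole numbers here. The submitters' processing notes name the build mm10 and, without order, the tools Cuffdiff 2.1.1 and Cufflinks, Bowtie2 2.1.0.0, TopHat2 2.0.9 and FastQC 0.10.0. The counting program's rule for reads that match several genes, and its strand setting, are not given in the sources used here. Of the gene names for tamoxifen DN3 cells, 25 had been turned into dates and were kept as they stand. None of the 52 genes was among them.

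Each comparison was fitted on the whole table for its own groups with edgeR 4.0.16 in R 4.3.3 (filterByExpr with a minimum count of 10 and a total of 15, TMM scaling, prior count of 0.125, robust quasi-likelihood test), and p-values were adjusted over all genes tested at a threshold of 0.05. The SE of a log2 fold change is its size divided by the root of the F statistic. DESeq2 1.42.0 and the other alternatives are covered in the closing section. The 12 comparisons were 6 of treatment, 4 of stage and 2 of the treatment effect between stages. The procedure was tested on simulated data. The genes, lists and tests were chosen with earlier results of these data known. Genes with a group mean of at least 5 CPM, 34 in all, are described singly. From each pathway list, called genes of a comparison with the lowest p-values are named, and further called genes were named after their values were seen. No 2 libraries of a group agreed within sampling noise. Positions are from GENCODE M21, GRCm38, and promoters from RefSeq, GRCm38.p6.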

Additional observations from a re-analysis of the deposited data

Results flagged for a closer look

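Among 136 sets of 4 libraries (34 genes in 4 tamoxifen groups), 7 held a library that stood far from the other 3 by Dixon's criterion, and chance alone flags about 1 in 20. In DeltaTamCre ETP cells Nlrc5 was highest in library 1, at 187 CPM (187, 103, 104 and 115 CPM), and H2-Q4 was highest in the same library, at 122 CPM (122, 94.6, 96.9 and 92.4 CPM). H2-Q7 had its lowest library at 28.1 CPM (67.9, 63.6, 65.99 and 28.1 CPM) and H2-Eb1 its lowest at 5.83 CPM (12.4, 12.6, 12.9 and 5.83 CPM) in that group. In DeltaTamCre DN3 cells H2-Q1 was highest at 8.66 CPM (8.66, 4.68, 4.23 and 4.47 CPM) and H2-T22 lowest at 34.3 CPM (43.6, 34.3, 42.4 and 43.3 CPM). In TamCre DN3 cells Cd74 was highest at 3.39 CPM (3.39, 1.29, 1.33 and 1.44 CPM).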

How the results depend on the processing

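No log2 fold change that was called changed sign under any alternative run, and the summed class I and class II levels moved by less than 1 SD with DESeq2's size factors. The number of these genes called did move. With DESeq2 in place of edgeR it was 10 in DN3 cells after pI-pC deletion (5 with edgeR), 1 in DN3 cells after tamoxifen (0), 3 with AntiNRR in DN3 cells (1), and for the stages 12 in MxCre (5), 15 in DeltaMxCre (9) and 11 with IgG (7). With every gene that had 1 count kept, it was 8 after pI-pC deletion and 2 with AntiNRR in DN3 cells. With DESeq2's size factors it was 2 with AntiNRR in DN3 cells. In the pI-pC and antibody table, 1 spread was also estimated from all groups of the stage (treatment comparisons) or of the experiment (stage comparisons). The number called was then 0 with AntiNRR in DN3 cells, 10 in MxCre, 5 in DeltaMxCre and 4 with IgG between the stages. With the replicate number as a block it was 2 with AntiNRR in DN3 cells and 3 with AntiNRR between the stages (5 without the block), and it stayed within 1.5 times in the other comparisons. The block ended the calls of H2-Q9 after pI-pC deletion in DN3 cells (adjusted p = 0.0797) and, between the stages, of Cd74 (adjusted p = 0.0905) and H2-Eb1 (adjusted p = 0.075) in MxCre, H2-Ab1 in DeltaMxCre (adjusted p = 0.0616), Psmb8 (adjusted p = 0.0641) and Tap1 (adjusted p = 0.0652) with IgG, and H2-Q6 (adjusted p = 0.0672) and H2-Ke6 (adjusted p = 0.059) with AntiNRR, and other genes gained a call. Same-numbered libraries had correlations from -0.355 to 0.184 between their deviations from the group means, and in no comparison was every pair above 0.1, so the numbers were not taken to pair the libraries. Leaving out 1 library at a time gave 0 to 7 calls after pI-pC deletion in DN3 cells, 0 to 2 with AntiNRR in DN3 cells, and for the stages 0 to 7 in MxCre, 3 to 10 in DeltaMxCre, 4 to 9 with IgG and 3 to 4 with AntiNRR. For the antibody effect between stages it gave 0 to 1, and 0 in the 5 other comparisons. These last runs for the effects between stages were chosen after seeing the data. The cause of these shifts was not tested.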
